A study of Homo sapiens with 12 samples.

Results

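The genes described here are 43 interferon-stimulated antiviral effectors, chosen by name from the gene rows of the count data and followed through the differentiation of HL-60 cells, a human promyelocytic leukemia cell line, in all-trans retinoic acid (ATRA). The count data listed 26364 genes, and each of the 43 symbols had a row. The libraries were made from total RNA of HL-60 cells at 4 times. The first group was untreated cells (0 h), and the others had been kept in ATRA at 1 µM, applied to induce neutrophil differentiation, for 4 h, for 2 d or for 4 d, with 3 replicates at each time and 12 libraries in all. HL-60 is 1 line of leukemic origin, and the labels do not say whether the replicates were separate cultures, so p-values measure the spread between these libraries. No untreated library at 4 h, 2 d or 4 d was used here, so time in ATRA and time in culture cannot be told apart. In bulk RNA, fewer cells of a type and less RNA per cell cannot be told apart either.

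Interferon-stimulated genes encode proteins that act on different steps of a virus's life cycle. Interferons bind receptors that signal through JAK kinases to transcription factors that bind interferon-stimulated response elements in the promoters of these genes. Interferon regulatory factors such as IRF1 can drive many of the same promoters. The products sense foreign nucleic acid, degrade or edit RNA, limit the nucleotide supply, block entry or release at membranes, or tag proteins with ubiquitin or ADP-ribose. Neutrophils and their precursors are known to express part of this program, while ATRA is known to raise interferon-responsive genes in promyelocytic leukemia cells.

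The libraries held 7866757 to 13658177 gene reads each, and levels are given as CPM, read counts scaled by library size and TMM factor. Genes with too few reads were left out of the tests by edgeR's filterByExpr, which kept 12671 genes and 32 of the 43 effectors. A member could pass this filter through the time at which it was high, so counts over the 32 describe the tested genes and are not a statement about the whole list. All 6 markers of the HL-60 myeloid lineage were above 1 CPM at every time, and their sum was 11300 to 11600 CPM at 4 d, against 30400 to 43600 CPM at 0 h. The granule gene ELANE was at 76.2 to 111 CPM at 4 d, against 1700 to 3710 CPM at 0 h, and CSF3R, the receptor for G-CSF, at 1720 to 3390 CPM at 4 d, against 276 to 587 CPM at 0 h. Of the lists for other cells, those for erythroid and epithelial cells had no marker with a mean above 1 CPM at any time. The T cell list summed to 4.66 to 7.75 CPM at 4 d, against 0.637 to 1.07 CPM at 0 h, and nearly all of that was CD3E, while CD3D and CD3G had 1 read each at 4 d. The plasmacytoid dendritic cell list summed to 65.2 to 132 CPM at 4 d, against 20.5 to 39.8 CPM at 0 h, of which IRF7 alone gave 55.8 to 125 CPM at 4 d and CLEC4C at most 0.61 CPM. In the same list, LILRA4 was at 1.97 to 3.31 CPM at 4 d, against 0.184 to 0.682 CPM at 0 h. TCF4 was at 4.88 to 7.75 CPM at 4 d, against 4.18 to 6.89 CPM at 0 h. The fibroblast list summed to 5.55 to 12.6 CPM at 4 d, against 0.368 to 1.82 CPM at 0 h, all of it COL1A1, with COL1A2, COL3A1 and DCN at 0 reads at both times. The B cell list summed to 6.45 to 7.63 CPM at 4 d, against 9.94 to 17.2 CPM at 0 h. The part of these markers in the results was not tested.

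Some libraries stood apart from their group. Levels followed GC content in 1 library each at 0 h (replicate 2), 4 h (replicate 3) and 4 d (replicate 1), with log2 levels higher by 0.498, 0.401 and 0.329 per 10 percentage points of GC than in the other libraries of their time. The library 4 h replicate 1 had reads in 22265 genes, against 15198 to 15798 in the other 11 libraries, and 28.15% of its reads were in no feature, against 13.97% to 23.25% in the others. The same library held 60 reads in the 11 effectors left out of the tests, against 2 to 26 in each other library.

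Few of the effector transcripts passed the test at 4 h, and most were higher at 2 d and 4 d. A gene was called where edgeR's quasi-likelihood test, fitted to all 12 libraries and adjusted by Benjamini-Hochberg over the 12671 genes, gave an adjusted p under 0.05, and each log2 fold change is the later time minus the earlier one. At 4 h against 0 h, 5 of the 32 tested members were called, 1 higher and 4 lower, where 6.23% of all tested genes were called (2.00% higher and 4.23% lower). At 2 d against 0 h, 25 were called, 23 of them higher and 2 lower, where 35.6% of all tested genes were called, 16.9% higher and 18.7% lower. At 4 d against 0 h, 30 were called, 28 of them higher and 2 lower, where 57.8% of all tested genes were called, 28.1% higher and 29.7% lower. These 3 comparisons share the 0 h libraries. The median log2 fold change of the tested members was 0.01 at 4 h, 1.26 at 2 d and 2.21 at 4 d, beside medians of 0, -0.02 and 0 over all tested genes. These medians are the same with GBP4, which had no reads at 0 h, placed at its lower bound.

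The later steps had the same direction. At 2 d against 4 h, 24 of the 32 tested members were called, 23 higher and 1 lower, where 34.5% of all tested genes were called, 16.5% higher and 18.0% lower. At 4 d against 2 d, 15 were called and all 15 were higher, where 26.6% of all tested genes were called and 13.1% were called higher. A called rise of at least 2-fold was found for 1 member at 4 h (1.03% of all tested genes), for 18 at 2 d (8.22%) and for 26 at 4 d (17.6%), each against 0 h, and for 18 at 2 d against 4 h (9.49%) and 9 at 4 d against 2 d (6.74%). Every library at 2 d lay above every library at 0 h for 26 of the 32 (26.0% of all tested genes), and at 4 d for 29 of the 32 (29.1% of all tested genes). The group mean was highest at 4 d for 28 of the 32, at 2 d for CMPK2 and DTX3L, at 4 h for ISG20 and at 0 h for BST2. An F-test over the 4 times called 32 of the 32, where it called 63.2% of all tested genes.

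**Figure D1:**
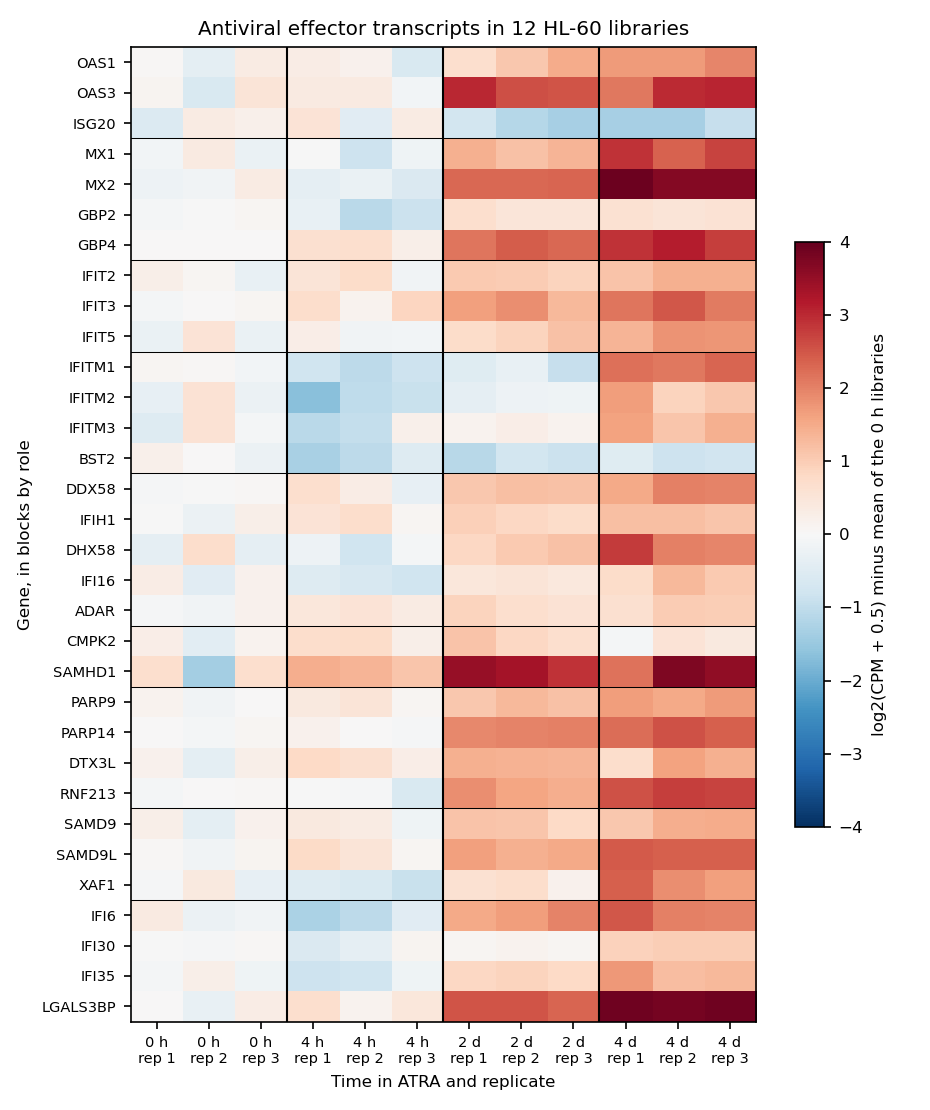
Level of the 32 tested effectors in each of the 12 libraries, as log2(CPM + 0.5) minus the mean of the 0 h libraries, with genes in blocks by role and libraries in order of time. Most rows are pale at 0 h and 4 h and red at 2 d and 4 d, while ISG20 and BST2 are blue at the later times and IFITM1 and IFITM2 turn red only at 4 d.

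**Figure D2:**
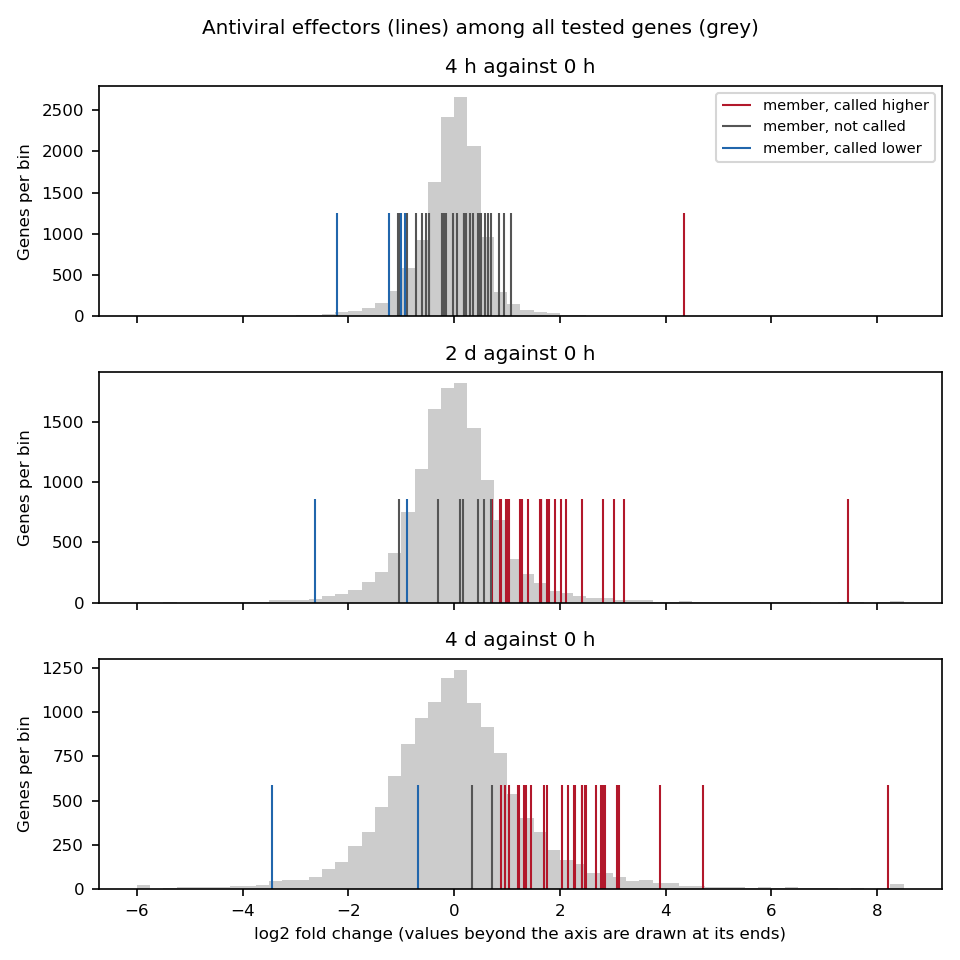
Log2 fold changes of the 32 tested effectors (lines) on the histogram of all 12671 tested genes (grey), for 4 h, 2 d and 4 d against 0 h. The effectors lie within the bulk of the histogram at 4 h, apart from GBP4, and mostly on its right side at 2 d and 4 d; the GBP4 value rests on 0 reads at 0 h and depends on the prior count.

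Promoter sequences are shown for the tested members with the largest called changes at 4 d against 0 h that had an entry in the promoter table, because the interferon-stimulated response element is what many of these genes are known to share. Each is the 300-base RefSeq window of GRCh38.p14, 250 bases before to 50 bases after the annotated start, written 5′ to 3′ on the strand of the gene. IFITM1 and RTP4 were added after their values were seen, IFITM1 for its late rise and RTP4 because it had almost no reads. Capitals mark a match, on either strand, to the core of that element, which is GAAA followed by 2 bases of any kind and a second GAAA. The windows are GBP4 at chr1:89198893-89199192 (minus strand), LGALS3BP at chr17:78979874-78980173 (minus), ISG20 at chr15:88638766-88639065 (plus), MX1 at chr21:41420308-41420607 (plus), SAMHD1 at chr20:36951659-36951958 (minus), IFITM1 at chr11:313790-314089 (plus) and RTP4 at chr3:187368135-187368434 (plus). MX1 had 3 entries and the first is shown.
GBP4: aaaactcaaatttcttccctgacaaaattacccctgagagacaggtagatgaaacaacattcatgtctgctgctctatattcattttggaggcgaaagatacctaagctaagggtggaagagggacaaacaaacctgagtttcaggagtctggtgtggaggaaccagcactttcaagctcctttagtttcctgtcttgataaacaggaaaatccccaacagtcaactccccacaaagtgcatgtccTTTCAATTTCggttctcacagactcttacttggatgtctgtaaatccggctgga
LGALS3BP: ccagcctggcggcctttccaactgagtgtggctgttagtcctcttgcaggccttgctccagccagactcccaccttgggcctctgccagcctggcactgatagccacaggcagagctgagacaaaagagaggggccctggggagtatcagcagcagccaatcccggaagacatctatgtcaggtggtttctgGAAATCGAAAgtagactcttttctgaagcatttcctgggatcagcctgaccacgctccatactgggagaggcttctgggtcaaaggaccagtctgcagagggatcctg
ISG20: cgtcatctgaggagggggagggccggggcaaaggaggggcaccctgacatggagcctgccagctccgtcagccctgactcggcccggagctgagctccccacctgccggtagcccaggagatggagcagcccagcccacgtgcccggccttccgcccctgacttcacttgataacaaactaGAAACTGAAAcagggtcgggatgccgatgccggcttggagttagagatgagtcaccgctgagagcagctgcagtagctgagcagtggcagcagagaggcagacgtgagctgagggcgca
MX1: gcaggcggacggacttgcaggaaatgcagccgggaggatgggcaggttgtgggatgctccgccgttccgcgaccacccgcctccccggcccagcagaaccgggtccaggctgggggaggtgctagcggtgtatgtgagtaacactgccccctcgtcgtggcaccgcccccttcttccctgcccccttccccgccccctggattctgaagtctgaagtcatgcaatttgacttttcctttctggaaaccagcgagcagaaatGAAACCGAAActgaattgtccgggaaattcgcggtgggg
SAMHD1: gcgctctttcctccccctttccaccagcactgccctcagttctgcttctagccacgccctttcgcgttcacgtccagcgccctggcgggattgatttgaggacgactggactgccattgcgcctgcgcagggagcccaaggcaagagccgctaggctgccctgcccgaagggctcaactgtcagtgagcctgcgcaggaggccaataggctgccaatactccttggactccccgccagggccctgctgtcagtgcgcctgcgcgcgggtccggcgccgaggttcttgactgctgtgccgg
IFITM1: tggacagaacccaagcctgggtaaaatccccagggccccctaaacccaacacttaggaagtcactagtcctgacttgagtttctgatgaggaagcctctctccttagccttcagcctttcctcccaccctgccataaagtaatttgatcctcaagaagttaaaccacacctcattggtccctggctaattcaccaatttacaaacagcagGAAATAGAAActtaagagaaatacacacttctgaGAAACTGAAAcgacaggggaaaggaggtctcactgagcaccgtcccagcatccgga
RTP4: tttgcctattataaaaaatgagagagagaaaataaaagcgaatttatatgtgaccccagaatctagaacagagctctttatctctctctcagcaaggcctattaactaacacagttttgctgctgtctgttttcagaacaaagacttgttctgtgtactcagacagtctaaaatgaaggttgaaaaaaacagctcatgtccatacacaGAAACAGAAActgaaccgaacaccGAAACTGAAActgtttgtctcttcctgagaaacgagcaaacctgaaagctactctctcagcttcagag

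This core was found in the window of 24 of the 35 members with an entry (68.6%), against 1195 of the 27305 genes in the table (4.38%). It was present in 16 of the 27 tested members with an entry and in 8 of the 8 untested members with an entry, so members with hardly any reads in these cells also carry it. ISG20, which fell, carries a match from 69 to 60 bases before its start, and SAMHD1, which rose, has none in this window. LGALS3BP carries a match from 58 to 49 bases before its start, and the matches of GBP4 and of the downstream site of IFITM1 span the start itself. The STAT-type motif TTCNNNGAA, searched on both strands, was found in 8 of the 35 members (22.9%) and in 9.38% of all genes in the table. The 2 motifs were counted separately, whether or not they overlap. A match describes the letters of the window only. MX2, GBP2, IFIT2, IFITM2, DHX58, OAS2, OASL and ZBP1 were not matched to the table.

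Among the effectors that degrade RNA, OAS3 and OAS1 rose and ISG20 fell. These are the 3 tested genes of the 5 listed with this role, 2 called higher and 1 lower at 4 d against 0 h. Of all tested genes, 28.1% were called higher and 29.7% lower in that comparison. The OAS enzymes make short oligoadenylates when they bind double-stranded RNA, which leads to RNA decay. OAS3 had 4.14, 2.37 and 5.65 CPM at 0 h, 5.04, 5.08 and 3.56 CPM at 4 h, 35.0, 25.6 and 24.5 CPM at 2 d, and 18.2, 34.1 and 35.2 CPM at 4 d. Its libraries at 2 d and 4 d lay above all those at 0 h and 4 h, and the 2 d and 4 d libraries overlapped. The log2 fold change was 2.85 ± 0.32 (SE) at 4 d against 0 h (adjusted p = 6.84e-06) and 0.04 ± 0.28 at 4 d against 2 d (adjusted p = 0.932). The lowest 4 d library for OAS3 was replicate 1, a library with a GC trend, and without the 3 libraries that had that trend the log2 fold change at 4 d against 0 h was 2.83.

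OAS1 was lower in level, with 17 reads in all at 0 h. It averaged 0.535 ± 0.254 CPM at 0 h, 0.518 ± 0.305 CPM at 4 h, 1.71 ± 0.614 CPM at 2 d and 2.99 ± 0.350 CPM at 4 d (SD, n = 3 each). The rise was 2.47 ± 0.46 (log2, SE) at 4 d against 0 h (adjusted p = 0.000473). The 2 d call of OAS1 (log2 fold change 1.64, adjusted p = 0.0186) ended when 0 h replicate 2, 2 d replicate 2 or 2 d replicate 3 was left out, with adjusted p from 0.0523 to 0.0703. OAS2 and OASL, the other members of the family, had too few reads to test.

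ISG20, an exonuclease that degrades single-stranded RNA, had 4, 12 and 10 reads at 0 h, 15, 6 and 13 reads at 4 h, 3, 1 and 0 reads at 2 d, and 0, 0 and 2 reads at 4 d. The 2 d and 4 d libraries were all below the 0 h and 4 h libraries. The ratio of 4 d to 0 h, 2 reads against 26, was 0.0793 with a 95% counting interval of 0.00912 to 0.317, and the call had an adjusted p of 0.00834. Its 2 d call (adjusted p = 0.0298) ended when 0 h replicate 2, 0 h replicate 3, 2 d replicate 2 or 2 d replicate 3 was left out, with adjusted p from 0.0719 to 0.108, and without the 3 libraries with a GC trend (-2.36, adjusted p = 0.0516). Without those libraries the ISG20 value at 4 d was -2.70 (adjusted p = 0.0494), beside -3.45 with them. Leaving out 2 d replicate 1 gave -3.83 at 2 d, beside -2.64 with it, and the 2 reads at 4 d were both in replicate 3.

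The large GTPases rose with time, and MX2 had the most reads of them. Of the 5 MX and GBP genes listed, 4 were tested and 3 were called higher at 4 d against 0 h (28.1% of all tested genes). MX1 and MX2 are dynamin-like GTPases that act on incoming viral ribonucleoproteins and capsids. MX2 had 3.22, 3.46 and 4.97 CPM at 0 h, 2.84, 3.12 and 2.37 CPM at 4 h, 20.5, 20.9 and 21.1 CPM at 2 d, and 64.8, 54.3 and 54.9 CPM at 4 d. MX1 had 0.919, 1.46 and 0.779 CPM at 0 h, 1.01, 0.363 and 0.848 CPM at 4 h, 3.60, 2.95 and 3.45 CPM at 2 d, and 10.9, 7.34 and 9.49 CPM at 4 d. For both genes the 2 d libraries lay above every earlier library and the 4 d libraries above every 2 d library. The 4 d to 0 h log2 fold change was 3.90 ± 0.19 (SE) for MX2 (adjusted p = 4.13e-09) and 3.12 ± 0.33 for MX1 (adjusted p = 3.81e-06). Between 4 d and 2 d it was 1.48 ± 0.17 for MX2 (adjusted p = 5.57e-05) and 1.47 ± 0.29 for MX1 (adjusted p = 0.00264). The pair lie next to each other on chromosome 21 in the GRCh38.p14 gene order.

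The guanylate-binding proteins, GTPases that attack the vacuoles of intracellular pathogens, were present at low levels. GBP4 had 0 reads in each 0 h library, 3, 4 and 1 reads at 4 h, 20, 29 and 16 reads at 2 d, and 31, 39 and 33 reads at 4 d. Against a floor of 3 reads over the 0 h group, GBP4 was at least 21.1-fold higher at 2 d and at least 35.4-fold higher at 4 d, with adjusted p of 2.68e-05 and 2.1e-06. GBP2 averaged 1.46 ± 0.0904 CPM at 0 h, 0.709 ± 0.347 CPM at 4 h, 2.38 ± 0.239 CPM at 2 d and 2.40 ± 0.111 CPM at 4 d (SD, n = 3 each). GBP2 rose at 2 d against 4 h by 1.76 ± 0.33 (log2, SE; adjusted p = 0.00121). Against 0 h it passed the threshold at no time, with adjusted p of 0.0882 at 4 h, 0.0928 at 2 d and 0.0629 at 4 d, although its 4 h libraries all lay below and its 2 d and 4 d libraries all above those at 0 h. In RefSeq's gene order GBP2 lies beside GBP1 and 1 protein-coding gene away from GBP4.

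**Figure D3:**
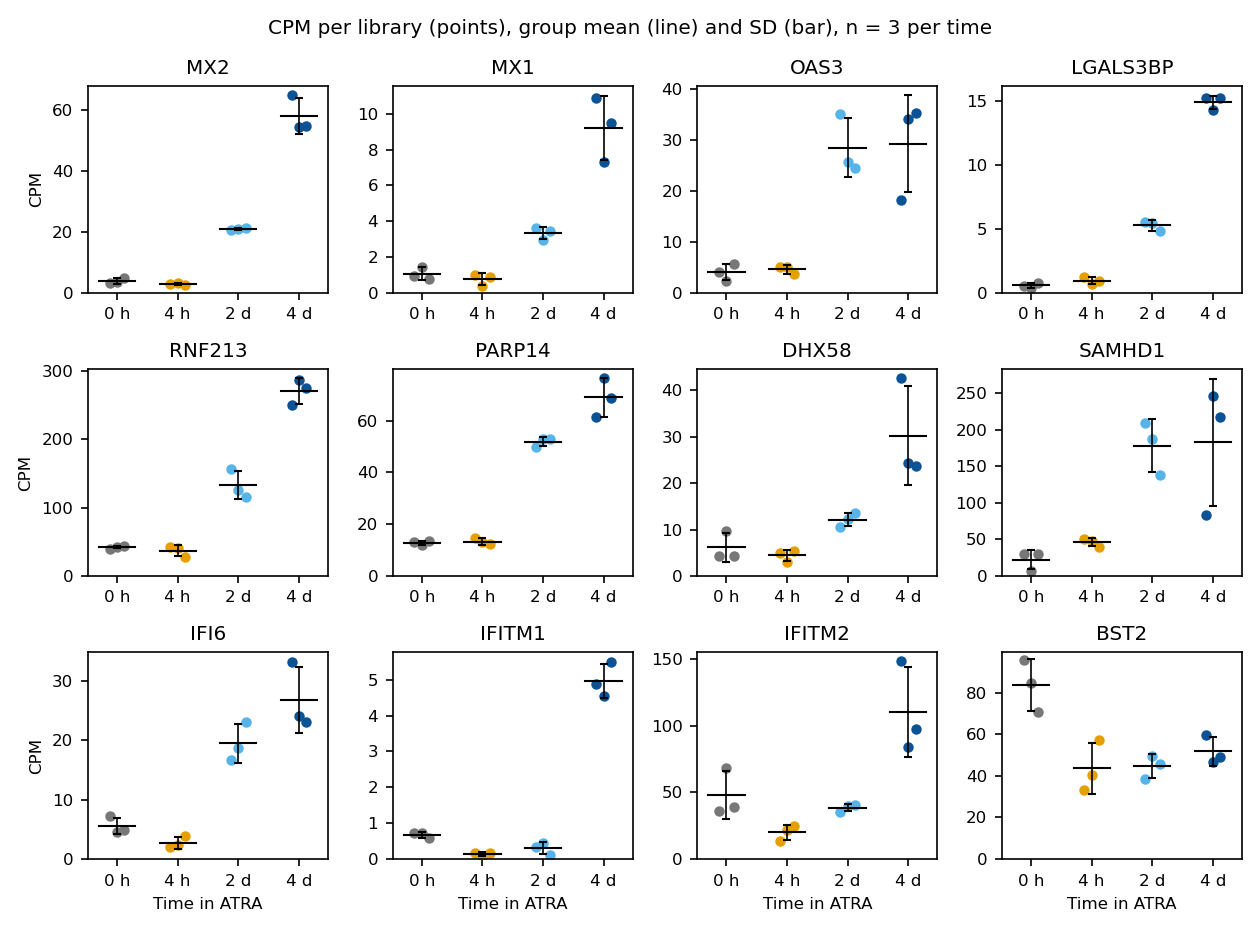
CPM of 12 effectors in each library (points) at the 4 times, with the group mean (line) and SD (bar), n = 3 per time; each panel has its own linear axis from 0. MX2, MX1, LGALS3BP and RNF213 step up at 2 d and again at 4 d, OAS3 and SAMHD1 overlap between 2 d and 4 d, IFITM1 is high only at 4 d, and BST2 is highest at 0 h.

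The IFIT proteins, which bind foreign RNA and hinder its translation, were low at 0 h, and the 3 tested of the 4 listed rose at 2 d and 4 d. Over all tested genes, 16.9% were called higher at 2 d and 28.1% at 4 d, each against 0 h. IFIT3 had 0.735, 0.819 and 0.877 CPM at 0 h, 1.65, 0.944 and 1.87 CPM at 4 h, 3.60, 4.24 and 2.71 CPM at 2 d, and 5.30, 6.84 and 5.05 CPM at 4 d. Each time's libraries lay above those of the time before it. The log2 fold change of IFIT3 was 0.85 ± 0.35 (SE) at 4 h (adjusted p = 0.153), 2.12 ± 0.32 at 2 d (adjusted p = 0.00027) and 2.81 ± 0.32 at 4 d (adjusted p = 6.99e-06), each against 0 h. IFIT2 averaged 1.37 ± 0.197 CPM at 4 d, against 0.246 ± 0.137 CPM at 0 h (SD, n = 3 each), a log2 fold change of 2.42 ± 0.53 (SE; adjusted p = 0.00147). IFIT5 averaged 1.75 ± 0.347 CPM at 4 d, against 0.245 ± 0.260 CPM at 0 h, a log2 fold change of 2.77 ± 0.55 (adjusted p = 0.000763).

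The 2 d calls of IFIT2 and IFIT5 were less firm than those at 4 d. For IFIT2 (log2 fold change 1.91, adjusted p = 0.0155) the call ended without 0 h replicate 3 (adjusted p = 0.0603) and without 2 d replicate 1 (adjusted p = 0.0504). For IFIT5 (log2 fold change 1.75, adjusted p = 0.0367) it ended without any 1 of 0 h replicates 1 and 3, the 3 replicates at 2 d, and 4 d replicates 2 and 3, with adjusted p from 0.0522 to 0.123, and with offsets for GC content and length (1.42, adjusted p = 0.0743). Without 0 h replicate 2, which held 6 of the 8 reads of IFIT5 at 0 h, its value was 3.03 at 2 d and 4.06 at 4 d, beside 1.75 and 2.77 with it. IFIT1, which lies between IFIT3 and IFIT5 on the chromosome, had 5, 9, 9 and 8 reads over the 3 libraries at 0 h, 4 h, 2 d and 4 d and was not tested. Of the 50-base stretches of IFIT2 transcripts in GENCODE v29, 8.4% also occur in another gene, so a part of its reads may have been assigned either way.

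The IFITM proteins, which hinder the fusion of enveloped viruses with cell membranes, were called higher at 4 d and not at 2 d, each against 0 h, as were IFI16, XAF1 and IFI30, and IFITM1 and IFITM2 were called lower at 4 h. IFITM1 had 0.735, 0.728 and 0.585 CPM at 0 h, 0.183, 0.0726 and 0.170 CPM at 4 h, 0.342, 0.454 and 0.123 CPM at 2 d, and 4.88, 4.56 and 5.49 CPM at 4 d. IFITM2 had 35.9, 68.3 and 38.7 CPM at 0 h, 13.9, 22.1 and 24.4 CPM at 4 h, 35.4, 39.5 and 40.8 CPM at 2 d, and 148, 84.2 and 97.7 CPM at 4 d. IFITM3 had 0.368, 1.36 and 0.682 CPM at 0 h, 0.0916, 0.145 and 0.933 CPM at 4 h, 0.856, 0.984 and 0.862 CPM at 2 d, and 3.32, 2.18 and 2.79 CPM at 4 d. For all 3 genes every 4 d library lay above every library at the other times. The log2 fold change at 4 d against 2 d was 3.88 ± 0.37 (SE) for IFITM1 (adjusted p = 1.96e-05), 1.51 ± 0.28 for IFITM2 (adjusted p = 0.00176) and 1.60 ± 0.54 for IFITM3 (adjusted p = 0.0417). At 2 d against 0 h none of the 3 was called, with log2 fold changes of -1.04 ± 0.45 for IFITM1 (adjusted p = 0.0998), -0.31 ± 0.28 for IFITM2 (adjusted p = 0.415) and 0.16 ± 0.61 for IFITM3 (adjusted p = 0.855).

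Limits apply to the IFITM values. The 3 genes are neighbours on chromosome 11 in the GRCh38.p14 order and share sequence. Of their 50-base stretches, 42.3% for IFITM1, 15.8% for IFITM2 and 20.3% for IFITM3 also occur in another gene, and IFITM2 has by far the most reads, so the split of reads between them is uncertain. For IFITM3 the 4 d call against 0 h (log2 fold change 1.76, adjusted p = 0.0135) ended without 0 h replicate 1 (1.41, adjusted p = 0.06), and without 0 h replicate 2 the value was 2.38. The IFITM3 call at 4 d against 2 d ended when 0 h replicate 3, any 2 d replicate or any 4 d replicate was left out, with adjusted p from 0.0554 to 0.126. IFITM2 was highest at 4 d in replicate 1 and at 0 h in replicate 2, which had the GC trend, and without the libraries with that trend its log2 fold change at 4 d against 0 h was 1.29, beside 1.20 with them.

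BST2, known as tetherin, holds budding virions at the cell surface, and it was the abundant member that fell. It had 95.6, 84.6 and 70.7 CPM at 0 h, 33.3, 40.2 and 57.3 CPM at 4 h, 38.5, 49.6 and 45.9 CPM at 2 d, and 59.5, 46.7 and 49.0 CPM at 4 d. Every later library lay below every 0 h library, and the 3 later groups overlapped. The log2 fold change against 0 h was -0.94 ± 0.20 (SE) at 4 h (adjusted p = 0.0161), -0.90 ± 0.20 at 2 d (adjusted p = 0.00384) and -0.69 ± 0.20 at 4 d (adjusted p = 0.00965).

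The changes at 4 h were few and depended on single libraries. BST2, IFITM1, IFITM2 and IFI6 fell and GBP4 rose. Their log2 fold changes were -2.22 ± 0.51 (SE) for IFITM1 (adjusted p = 0.0219), -1.24 ± 0.28 for IFITM2 (adjusted p = 0.0213) and -1.01 ± 0.28 for IFI6 (adjusted p = 0.0492), and GBP4, at 8 reads against 0, was at least 2.35-fold higher (adjusted p = 0.0414). Each of these 5 calls ended when certain libraries were left out. BST2 lost its call without 0 h replicate 1, 4 h replicate 1 or 4 h replicate 2 (adjusted p from 0.0529 to 0.0917), and IFITM2 without 0 h replicate 2, 4 h replicate 1 or 4 h replicate 2 (adjusted p from 0.066 to 0.103). IFITM1 lost it without 0 h replicate 1 or 2 or 4 h replicate 1 or 2 (adjusted p from 0.0505 to 0.12). IFI6 kept it only without 4 h replicate 3 or 4 d replicate 1, and GBP4 only without 4 h replicate 3, with adjusted p up to 0.201 for IFI6 and 0.144 for GBP4 in the other cases. Over the tested members, the count of 5 fell to between 0 and 3 without any 1 of the 0 h libraries, 4 h replicates 1 and 2, the 2 d libraries and 4 d replicates 2 and 3, and was 9 without 4 h replicate 3. Leaving out the 3 libraries with a GC trend gave 13 called members at 4 h, 6 higher and 7 lower, where 24.9% of all tested genes were then called, and the 5 were among them.

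Of 6 nucleic acid sensors and editors listed, 5 were tested, and 5 were called higher at 4 d and 4 at 2 d, each against 0 h. The shares of all tested genes called higher were 28.1% at 4 d and 16.9% at 2 d. DDX58 (RIG-I) and IFIH1 (MDA5) are helicases that detect viral RNA in the cytosol, and DHX58 (LGP2) is their regulator. DHX58 had 4.32, 9.73 and 4.38 CPM at 0 h, 4.85, 3.05 and 5.43 CPM at 4 h, 10.6, 12.3 and 13.5 CPM at 2 d, and 42.6, 24.4 and 23.7 CPM at 4 d. DDX58 had 2.85, 2.91 and 3.02 CPM at 0 h, 4.95, 3.70 and 2.20 CPM at 4 h, 6.76, 7.41 and 7.14 CPM at 2 d, and 9.35, 13.4 and 13.1 CPM at 4 d. IFIH1 had 6.34, 5.28 and 7.60 CPM at 0 h, 9.43, 10.7 and 6.78 CPM at 4 h, 12.7, 11.7 and 11.0 CPM at 2 d, and 15.3, 15.4 and 14.3 CPM at 4 d. In all 3 the 2 d and 4 d libraries lay above every 0 h library and did not overlap each other. From edgeR, the log2 fold change at 4 d against 0 h was 2.29 ± 0.34 (SE) for DHX58 (adjusted p = 6.42e-05), 2.03 ± 0.26 for DDX58 (adjusted p = 2.39e-05) and 1.22 ± 0.20 for IFIH1 (adjusted p = 0.000157). DHX58 was highest in the libraries with a GC trend at 0 h and 4 d, and without those libraries its 4 d value was 2.46. Its 2 d call against 0 h (0.98, adjusted p = 0.0368) ended without any 1 of 0 h replicates 1 and 3, 4 h replicate 1 and the 3 replicates at 2 d, with adjusted p from 0.0566 to 0.125.

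The DNA sensor IFI16 and the RNA editor ADAR changed less. IFI16 had 15.0, 8.82 and 13.8 CPM at 0 h, 8.33, 7.69 and 6.78 CPM at 4 h, 16.8, 17.9 and 16.6 CPM at 2 d, and 20.7, 30.9 and 25.7 CPM at 4 d. Its 4 h libraries were its lowest and its 4 d libraries its highest, with a log2 fold change of 1.04 ± 0.21 (SE) at 4 d against 0 h (adjusted p = 0.000767) and 0.45 ± 0.21 at 2 d against 0 h (adjusted p = 0.11). ADAR, which converts adenosine to inosine in double-stranded RNA, had 210, 196 and 244 CPM at 0 h, 298, 317 and 271 CPM at 4 h, 398, 345 and 319 CPM at 2 d, and 339, 439 and 423 CPM at 4 d. Its libraries at 4 h, 2 d and 4 d all lay above those at 0 h. The change was called at 2 d (0.71 ± 0.16, adjusted p = 0.00469) and at 4 d (0.88 ± 0.16, adjusted p = 0.000443) but not at 4 h (0.45 ± 0.16, adjusted p = 0.119).

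Of the genes acting on the nucleotide pool, SAMHD1 rose at 2 d and 4 d, and CMPK2 was called higher at 2 d. SAMHD1 hydrolyses deoxynucleotides and so starves reverse transcription. It had 29.3, 6.82 and 29.3 CPM at 0 h, 50.6, 47.5 and 40.0 CPM at 4 h, 210, 188 and 138 CPM at 2 d, and 83.5, 247 and 218 CPM at 4 d. The later libraries all lay above those at 0 h, and the lowest values at 0 h and at 4 d were in 2 of the libraries with a GC trend. Against 0 h, its log2 fold change was 1.08 ± 0.46 (SE) at 4 h (adjusted p = 0.168), 3.03 ± 0.48 at 2 d (adjusted p = 0.000355) and 3.07 ± 0.48 at 4 d (adjusted p = 0.00012), and without those libraries it was 2.60 at 2 d and 2.99 at 4 d. CMPK2, a mitochondrial nucleotide kinase, averaged 2.28 ± 0.644 CPM at 0 h, 3.55 ± 0.723 CPM at 4 h, 4.54 ± 0.853 CPM at 2 d and 2.87 ± 0.714 CPM at 4 d (SD, n = 3 each). CMPK2 was called at 2 d against 0 h (1.00 ± 0.30, adjusted p = 0.0189), and the call ended without 0 h replicate 2 (0.78, adjusted p = 0.0672) and without 2 d replicate 1 (0.84, adjusted p = 0.0862). Its 4 d libraries were all below those at 2 d, with an adjusted p of 0.111. Its neighbour RSAD2 had too few reads to test and is described with the other low genes.

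**Figure D4:**
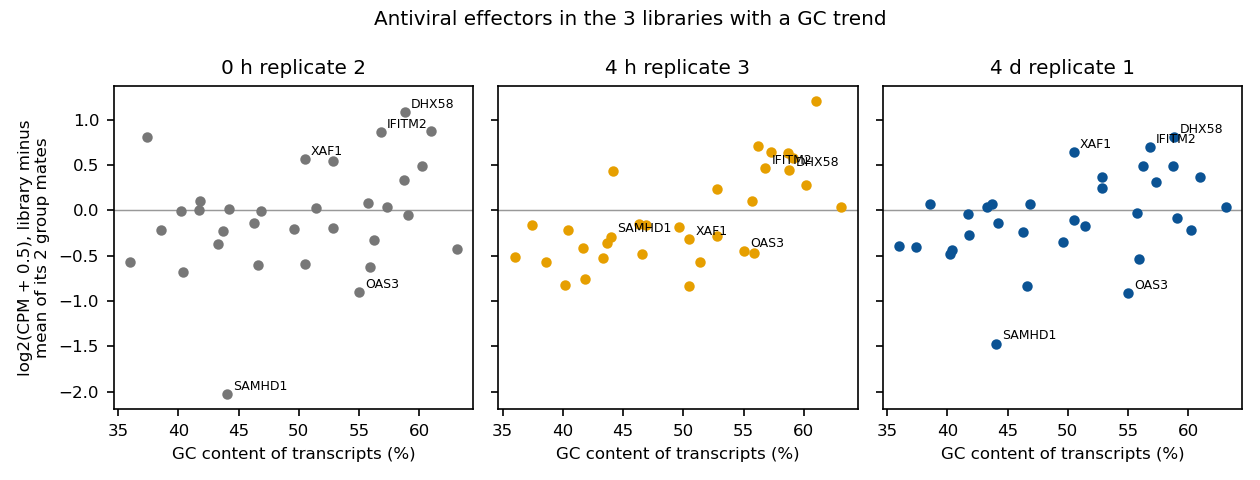
Deviation of each tested effector in 3 libraries from the mean of the other 2 libraries of its time, as log2(CPM + 0.5), against the GC content of its transcripts; each point is 1 gene. Spearman's rho over the 32 genes was 0.30, 0.66 and 0.46 in the libraries of 0 h, 4 h and 4 d shown, and SAMHD1 is the lowest point in the first and last panels.

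The plot of deviations by GC content shows why these libraries are named beside single genes. Its points share a library and their base composition, so the correlations are a description of those libraries. The changes over time were also fitted without these libraries and with offsets for GC content and length. Some of the values that moved are given beside the genes, and not every shift is listed. Over all alternatives run, the lowest log2 fold change at 4 d against 0 h was 0.94 for SAMD9, beside 1.36 in the main fit. It was 2.15 for RNF213, beside 2.68, and 0.56 for ADAR, beside 0.88.

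Members that attach ADP-ribose or ubiquitin were called higher in 4 of 4 cases at 2 d and at 4 d, each against 0 h. The shares of all tested genes called higher were 16.9% at 2 d and 28.1% at 4 d. PARP14, a mono-ADP-ribosyltransferase, had 12.9, 12 and 13.6 CPM at 0 h, 14.6, 12.9 and 12.3 CPM at 4 h, 49.9, 52.7 and 52.9 CPM at 2 d, and 61.5, 76.6 and 68.7 CPM at 4 d. RNF213, a giant ubiquitin ligase, had 40.0, 42.8 and 43.8 CPM at 0 h, 41.9, 40.4 and 27.6 CPM at 4 h, 156, 126 and 116 CPM at 2 d, and 250, 287 and 275 CPM at 4 d. Neither passed the test at 4 h, and both had 2 d libraries above all earlier ones and 4 d libraries above all those at 2 d. At 4 d against 0 h the log2 fold change was 2.42 ± 0.14 (SE) for PARP14 (adjusted p = 1.97e-08) and 2.68 ± 0.19 for RNF213 (adjusted p = 9.38e-08). At 4 h it was 0.05 ± 0.14 for PARP14 (adjusted p = 0.85) and -0.20 ± 0.18 for RNF213 (adjusted p = 0.471).

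PARP9 and DTX3L form a complex that joins ADP-ribosylation to ubiquitin transfer, and their genes lie head to head. PARP9 had 8.09, 6.55 and 7.4 CPM at 0 h, 9.71, 10.7 and 7.80 CPM at 4 h, 16.1, 18.8 and 17.1 CPM at 2 d, and 24.4, 21.7 and 24.9 CPM at 4 d. DTX3L had 15.3, 10.1 and 15.9 CPM at 0 h, 24.0, 21.5 and 16.2 CPM at 4 h, 36.7, 35.9 and 35.6 CPM at 2 d, and 22.2, 42.5 and 37.3 CPM at 4 d. The 2 d libraries of PARP9 lay above all earlier ones and its 4 d libraries above those at 2 d, while the 2 d libraries of DTX3L fell within the range of those at 4 d, whose lowest value was in replicate 1, a library with a GC trend. For 4 d against 0 h the log2 fold change was 1.69 ± 0.17 (SE) for PARP9 (adjusted p = 2.09e-06) and 1.31 ± 0.24 for DTX3L (adjusted p = 0.00045). In RefSeq on GRCh38.p14 the starts of DTX3L and of the second PARP9 entry are 38 bases apart on opposite strands, and their promoter windows share 137 bases.

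SAMD9L and SAMD9, neighbouring genes whose proteins restrict poxviruses, rose, as did XAF1, a partner of the apoptosis inhibitor XIAP. SAMD9L had 5.52, 4.82 and 5.85 CPM at 0 h, 9.52, 7.84 and 5.68 CPM at 4 h, 17.8, 15.4 and 16.4 CPM at 2 d, and 31.6, 30.1 and 30.1 CPM at 4 d. SAMD9 had 15.1, 9.73 and 14.4 CPM at 0 h, 16.9, 16.3 and 11.4 CPM at 4 h, 28.8, 28.6 and 22.5 CPM at 2 d, and 27.6, 36.1 and 36.6 CPM at 4 d. SAMD9L stepped up without overlap at 2 d and again at 4 d, whereas the 2 d and 4 d libraries of SAMD9 overlapped. The log2 fold change at 4 d against 0 h was 2.5 ± 0.19 (SE) for SAMD9L (adjusted p = 1.92e-07) and 1.36 ± 0.21 for SAMD9 (adjusted p = 0.00011), and at 4 d against 2 d it was 0.89 ± 0.18 for SAMD9L (adjusted p = 0.00263) and 0.33 ± 0.20 for SAMD9 (adjusted p = 0.264). XAF1 had 2.39, 3.37 and 1.85 CPM at 0 h, 1.56, 1.45 and 1.10 CPM at 4 h, 4.02, 4.39 and 2.83 CPM at 2 d, and 15.2, 10.3 and 8.80 CPM at 4 d. Its 4 h libraries were the lowest and its 4 d libraries the highest, with a log2 fold change of 2.16 ± 0.29 at 4 d against 0 h (adjusted p = 3.08e-05) and 0.57 ± 0.30 at 2 d against 0 h (adjusted p = 0.152).

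Of the last 9 effectors listed, 4 were tested and 4 were called higher at 4 d against 0 h (28.1% of all tested genes). LGALS3BP, a secreted glycoprotein that binds galectins, had the largest fold change among members with reads at every time. It had 0.552, 0.364 and 0.779 CPM at 0 h, 1.19, 0.653 and 0.933 CPM at 4 h, 5.56, 5.45 and 4.80 CPM at 2 d, and 15.2, 14.3 and 15.2 CPM at 4 d. The groups at 2 d and 4 d stood clear of all earlier libraries and of each other. Its log2 fold change was 3.21 ± 0.29 (SE) at 2 d (adjusted p = 3.21e-06) and 4.70 ± 0.28 at 4 d (adjusted p = 2.44e-08), each against 0 h. The 4 d value is a 26.0-fold rise.

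IFI6, a small membrane protein that hinders flavivirus replication, and IFI35 rose, and IFI30 rose late. IFI6 had 7.17, 4.64 and 4.97 CPM at 0 h, 2.01, 2.40 and 3.90 CPM at 4 h, 16.7, 18.7 and 23.0 CPM at 2 d, and 33.2, 24.0 and 23.1 CPM at 4 d. All its 4 h libraries lay below and all its 2 d and 4 d libraries above those at 0 h. Its log2 fold change was 2.80 ± 0.27 (SE) at 2 d against 4 h (adjusted p = 7.15e-06) and 2.26 ± 0.26 at 4 d against 0 h (adjusted p = 7.11e-06). IFI35 had 16.1, 19.8 and 15.0 CPM at 0 h, 9.25, 9.44 and 14.8 CPM at 4 h, 30.6, 31.8 and 29.9 CPM at 2 d, and 57.6, 39.9 and 42.0 CPM at 4 d. It was again lowest at 4 h and highest at 4 d, with a log2 fold change of 1.45 ± 0.21 at 4 d against 0 h (adjusted p = 4.73e-05). IFI30, a lysosomal thiol reductase used in antigen processing, had 129, 128 and 137 CPM at 0 h, 88.7, 103 and 143 CPM at 4 h, 139, 146 and 140 CPM at 2 d, and 247, 263 and 260 CPM at 4 d. Only its 4 d libraries stood clear of the rest by a wide margin, with 0.96 ± 0.17 at 4 d against 0 h (adjusted p = 0.00029) and 0.11 ± 0.17 at 2 d against 0 h (adjusted p = 0.651). Of the 50-base stretches of IFI30 transcripts in GENCODE v29, 87.5% also occur in AC007192.1, and whether the authors' annotation held that gene is not given in the sources used here.

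Several calls at 4 d against 2 d were close to the threshold. DDX58 (0.75, adjusted p = 0.0384), IFI16 (0.59, adjusted p = 0.0466), PARP14 (0.41, adjusted p = 0.034) and IFI35 (0.59, adjusted p = 0.0424) each ended when single libraries were left out. The libraries were 0 h replicate 3, 4 h replicate 2, any 2 d replicate and 4 d replicates 2 and 3 for DDX58 and IFI16, with adjusted p up to 0.12 for DDX58 and 0.156 for IFI16. For PARP14 they were 4 h replicate 2, any 2 d replicate and 4 d replicates 2 and 3 (adjusted p up to 0.118), and for IFI35 they were 0 h replicates 1 and 3, 4 h replicate 2, any 2 d replicate and 4 d replicates 1 and 3 (adjusted p up to 0.147). With scaling by library totals alone, the calls of DDX58, IFI16 and PARP14 ended as well. Those of IFI16 and PARP14 also ended with no filter on low counts. At 2 d against 4 h, DTX3L (0.81, adjusted p = 0.0175) lost its call without 4 h replicate 3 or 2 d replicate 1, and IFITM2 (0.93, adjusted p = 0.0207) without 4 h replicate 1, 2 d replicate 2 or 2 d replicate 3, with adjusted p up to 0.0751 for DTX3L and 0.0952 for IFITM2.

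Compared per kilobase of the longest GENCODE v29 transcript, the levels at 4 d were highest for IFI30 at 226 CPM per kb, followed by IFITM2 at 123, ADAR at 59.7, BST2 at 50.8, IFI35 at 37.4, SAMHD1 at 34.5, IFI6 at 31.8 and MX2 at 19.1 CPM per kb. At 0 h the order was IFI30 at 116, BST2 at 82.1, IFITM2 at 53.4, ADAR at 32.3 and IFI35 at 13.7 CPM per kb. SAMHD1 and MX2 were at 4.12 and 1.28 CPM per kb at 0 h. The IFIT genes stayed low on this scale, with IFIT3 at 2.30, IFIT5 at 0.436 and IFIT2 at 0.370 CPM per kb at 4 d. The order of neighbours in these lists was not tested.

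**Figure D5:**
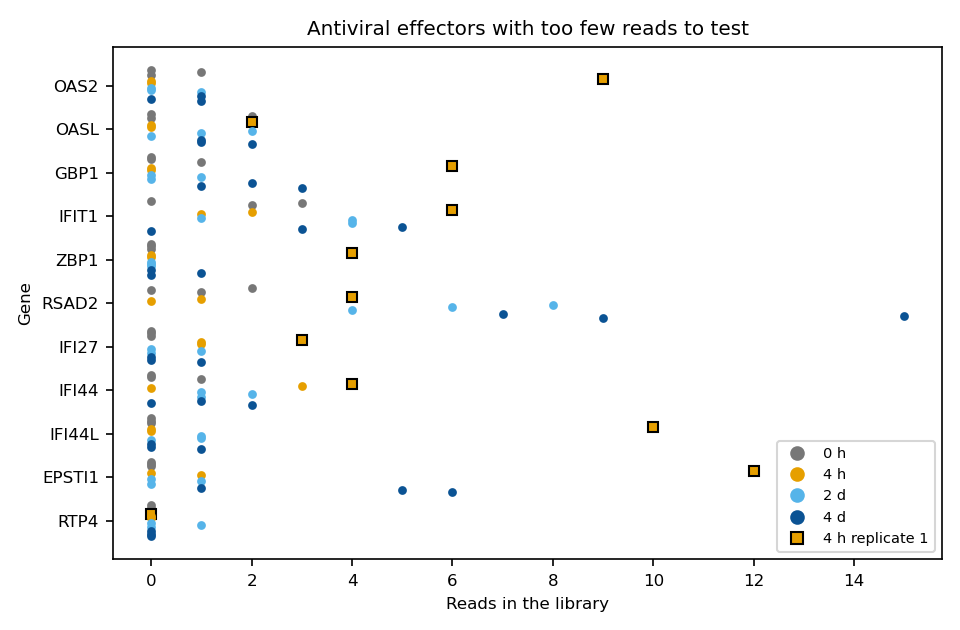
Reads per library of the 11 effectors with too few reads to test, coloured by time; each point is 1 library and the outlined squares are 4 h replicate 1. RSAD2 reaches 7 to 15 reads at 4 d, and the highest points of EPSTI1, IFI44L and OAS2 are squares.

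The 11 members with too few reads to test included some of the best-known interferon-stimulated genes. RSAD2 (viperin), an enzyme that makes a chain-terminating nucleotide, had 2, 0 and 1 reads at 0 h, 4, 1 and 0 reads at 4 h, 8, 6 and 4 reads at 2 d, and 7, 15 and 9 reads at 4 d. Its 2 d and 4 d libraries all lay above those at 0 h, and the ratio was 5.84 at 2 d (95% counting interval 1.70 to 30.9) and 10.6 at 4 d (3.32 to 54.4). EPSTI1 had 0 reads at 0 h, 12, 0 and 1 reads at 4 h, 0, 1 and 0 reads at 2 d, and 1, 5 and 6 reads at 4 d. Its 4 d reads were at least 4.12-fold higher than at 0 h, against a floor of 3 reads over the group, and 12 of its 13 reads at 4 h were in replicate 1. Without any filter on low counts, edgeR called these 2 untested members, and only these 2, at 4 d against 0 h, with adjusted p of 0.00249 for RSAD2 and 0.028 for EPSTI1.

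The remaining 9 had no more than 10 reads in any library. OAS2 had 0, 1 and 0 reads at 0 h, 9, 0 and 0 reads at 4 h, 0, 0 and 1 reads at 2 d, and 1, 0 and 1 reads at 4 d, and IFI44L had 0, 0 and 0 reads at 0 h, 10, 0 and 0 reads at 4 h, 1, 1 and 0 reads at 2 d, and 0, 0 and 1 reads at 4 d. For both, the high value was 4 h replicate 1, the library with reads in many more genes than the others, so these reads are not read as a change at 4 h. IFI44 had up to 4 reads, OASL up to 2, IFI27 up to 3, GBP1 up to 6, ZBP1 up to 4 and IFIT1 up to 6 reads in a library, and the highest value of each was in 4 h replicate 1, shared with other libraries for OASL. RTP4 had 1 read in all, in 2 d replicate 2, and its promoter, shown above, holds 2 matches to the response element core. At this depth 3 reads correspond to 0.218 to 0.369 CPM in a library. Values below that level rest on fewer than 3 reads, and changes among them can be missed. Such floors and the intervals above cover counting error only.

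Transcripts of the interferon genes looked up were at or near 0, and other interferon genes were not looked up. The 10 interferon genes looked up (IFNA1, IFNA2, IFNB1, IFNE, IFNG, IFNK, IFNL1, IFNL2, IFNL3 and IFNW1) had 16 reads over 8 genes in 4 h replicate 1, 1 read in 4 d replicate 1 and 0 reads in each of the other 10 libraries. The library 4 h replicate 1 also held more reads of the untested effectors than any other library and had the highest share of reads in no feature. The source of these reads was not tested. The values therefore give none of these 10 interferon genes with reads in more than 1 library of a time.

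Genes of interferon sensing and signalling that are not members were looked up as well, 66 in all, of which 50 were tested. At 4 d against 0 h, 26 of the 50 were called higher and 7 lower, with a median log2 fold change of 0.78, where 28.1% of all tested genes were called higher and 29.7% lower. At 2 d against 0 h, 22 were called higher and 4 lower, with a median of 0.55, where 16.9% of all tested genes were called higher and 18.7% lower. At 4 h against 0 h, 3 were called higher and 5 lower, with a median of 0.01, where 2.00% of all tested genes were called higher and 4.23% lower. Beyond the genes given below, those called at 4 h were HERC6 at 0.77, UBE2L6 at -0.66, TMEM173 (STING) at -0.99 and TLR9 at -0.85. Against 0 h, TMEM173 was called higher at 2 d (0.6, adjusted p = 0.0396) and was not called at 4 d (0.38, adjusted p = 0.131). Of 6 receptor genes, 5 were tested and 4 were called higher at 4 d (28.1% of all tested genes), led by IFNAR2, a subunit of the type I interferon receptor, at 2.07 ± 0.15 (log2 fold change, SE; adjusted p = 1.19e-07). IL10RB, shared by the lambda interferon and IL-10 receptors, rose by 1.59 ± 0.14 (adjusted p = 7.93e-07). The ligand-binding IFNGR1 rose by 1.33 ± 0.17 (adjusted p = 1.81e-05), and IFNAR1 had 0.58 ± 0.24 (adjusted p = 0.0511).

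Of 14 JAK, STAT and IRF genes, 11 were called higher and 2 lower at 4 d against 0 h, where 28.1% of all tested genes were called higher and 29.7% lower. IRF1, a transcription factor that binds response elements of this kind, had 30.8, 30.7 and 29.1 CPM at 0 h, 45.9, 55.0 and 58.2 CPM at 4 h, 96.1, 94.6 and 105 CPM at 2 d, and 150, 125 and 138 CPM at 4 d. Each time's libraries lay above those of the time before. IRF1 was called at 4 h against 0 h (0.81 ± 0.14, SE, adjusted p = 0.00461). Whether IRF1 acts on the members in these cells was not tested. STAT2 had 64.2, 71.8 and 62.7 CPM at 0 h, 45.2, 43.7 and 43.7 CPM at 4 h, 104, 117 and 139 CPM at 2 d, and 242, 204 and 211 CPM at 4 d. STAT2 was thus called lower at 4 h (-0.58 ± 0.15, adjusted p = 0.0351) and higher at 4 d (1.73 ± 0.15, adjusted p = 6.88e-07). The 4 h calls of non-members, here and above, are given without refits that leave out libraries. At 4 d against 0 h, JAK2 rose by 2.43 ± 0.27 (adjusted p = 5.75e-06) and IRF7 by 1.98 ± 0.36 (adjusted p = 0.000338), while IRF8 fell by 1.66 (SE 0.33, adjusted p = 0.000723) and IRF5 by 0.97 (SE 0.25, adjusted p = 0.00403). IRF5 was lower already at 4 h, by -2.12 ± 0.26 (adjusted p = 0.00033). IRF4 had 27, 34 and 35 reads at 4 d, against 1, 0 and 2 reads at 0 h (adjusted p = 0.000167).

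Among negative regulators, SOCS3, which inhibits JAK signalling, had 0.919, 1.73 and 1.66 CPM at 0 h, 8.61, 11.3 and 12.9 CPM at 4 h, 116, 85.8 and 91.6 CPM at 2 d, and 127, 97.1 and 120 CPM at 4 d. Its rise was called at every time, with a log2 fold change of 2.92 ± 0.26 (SE) at 4 h (adjusted p = 3.04e-05) and 6.31 ± 0.27 at 4 d (adjusted p = 1.26e-09), each against 0 h. Of the 7 negative regulators listed, 6 were tested, and 3 were called higher and 1 lower at 4 d against 0 h. Of all tested genes, 28.1% were called higher and 29.7% lower. PIAS1 was at 1.09 ± 0.23 (adjusted p = 0.00104), PTPN6 at 0.81 ± 0.22 (adjusted p = 0.00594) and IRF2BP1 at -1.13 ± 0.33 (adjusted p = 0.0102). USP18, which removes ISG15 from proteins, had at most 11 reads in a library and was not tested. ISG15 itself, a ubiquitin-like modifier and a classic interferon-stimulated gene, did not pass the test at 4 d (-0.37 ± 0.34, adjusted p = 0.368). Its libraries at 4 d, at 17.9, 8.43 and 8.45 CPM, overlapped those at 0 h, at 12, 22.1 and 10.7 CPM. The highest values, 17.9 CPM (4 d replicate 1) and 22.1 CPM (0 h replicate 2), were in libraries with a GC trend. In the remaining libraries, ISG15 at 4 d lay below its values at 0 h. Its conjugation enzymes UBA7 and UBE2L6 rose at 4 d by 2.09 ± 0.24 (adjusted p = 8.44e-06) and 1.40 ± 0.16 (adjusted p = 8.8e-06), and the ligase HERC5 fell by 2.43 (SE 0.31, adjusted p = 1.69e-05).

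Of 12 sensing adaptors and kinases, 10 were tested, and 3 were called higher and 1 lower at 4 d against 0 h. These shares are near or below the 28.1% of all tested genes called higher and 29.7% called lower. The adaptor MYD88 rose by 2.45 ± 0.15 (log2, SE; adjusted p = 2.9e-08) and the RNA receptor TLR8 by 2.38 ± 0.34 (adjusted p = 5.02e-05), and the DNA receptor TLR9 fell by 1.75 (SE 0.24, adjusted p = 4.19e-05). MAVS, through which DDX58 and IFIH1 signal, had 0.44 ± 0.19 (adjusted p = 0.0603). Of 12 further antiviral effectors, 10 were tested, and 3 were called higher and 2 lower against the same background shares, with SLFN5 at 3.04 ± 0.78 (adjusted p = 0.00429), TRIM22 at 2.60 ± 0.20 (adjusted p = 2.14e-07) and TREX1, a DNA exonuclease, at -1.44 ± 0.31 (adjusted p = 0.00134). SLFN5 averaged 0.218 ± 0.231 CPM at 0 h and 1.87 ± 0.55 CPM at 4 d (SD), so its fold change starts near the level of 3 reads in a library. EIF2AK2 (PKR), a kinase activated by double-stranded RNA, was not called, at 0.76 ± 0.42 (adjusted p = 0.141).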

How the data were processed

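Total RNA of 12 HL-60 libraries, 3 at each of 4 times, was sequenced. The authors deposited raw counts of reads per gene for each library. Per the submitters' processing notes, FastQC, Trim Galore 0.6.7, HISAT2 2.1.0, HTSeq 1.99.2 and the build hg19 were used. The sources used here do not name the annotation, strand setting or kit, so a gene and an overlapping antisense gene cannot be told apart. The 5 rows of reads not assigned to a gene were left out; reads in no feature came to 13.97% to 28.15% of a library and ambiguous reads to 2.74% to 3.9%.

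The members, lists and tests were chosen with earlier results of these data known. Genes were kept by filterByExpr (12671 genes, 99.9% of gene reads) and tested in edgeR 4.0.16 (R 4.3.3) by the quasi-likelihood test, with TMM factors of 0.864 to 1.098, 1 mean per time and 8 residual degrees of freedom; adjusted p-values are Benjamini-Hochberg over the kept genes. CPM are TMM-scaled, log2 levels use a pseudocount of 0.5 CPM, and intervals on ratios of reads are exact at 95%. The procedure was tested on simulated data. Alternatives were other scalings, filters and tools (DESeq2 1.42.0, limma 3.58.1), GC and length offsets, a replicate block and leaving out libraries. Values in every library are given for members with a mean of at least 5 CPM at some time. These members also had a called change of at least 2-fold or groups without overlap. Low members are given by read counts. Up to 4 called genes per pathway list and comparison were named by size, mainly at 4 d and 4 h against 0 h. Not every called gene is named. IFNAR1, ISG15, USP18, IRF8, MAVS and EIF2AK2 were added after their values were seen. So were the values in every library of some lower members such as IFITM1, IFITM3, MX1 and IFIT3. Of these, MX1 and IFIT3 have means above 5 CPM at 4 d, and IFITM1 and IFITM3 stay below 5 CPM at every time. Promoters came from RefSeq (GRCh38.p14) by symbol or older symbol, and transcript length, GC content and shared 50-base stretches from GENCODE v29.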

Additional observations from a re-analysis of the deposited data

How the results depend on the processing

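Of 99 calls of members over the 5 comparisons, 22 were lost in at least 1 of 23 settings, each of the 22 in at least 1 setting that leaves out a library, and 0 turned direction. A call was not counted as lost in a setting that held no value for its gene. This was the case for GBP4 and IFITM1 at 4 h with only the 6 libraries compared, so the count of 22 can be too low. The number of members called at 4 h against 0 h was the least stable. It was 5 in the model of all 12 libraries, 0 with only the 6 libraries compared, 0 with the replicate block, 8 with GC and length offsets, 13 without the 3 libraries apart on GC content, and 0 to 9 when 1 library was left out. DESeq2 called 6 members there and limma-voom 4. The cause of these shifts was not tested. The other counts of members stayed within 1.5 times their value under every alternative run: 21 to 26 at 2 d and 27 to 32 at 4 d, each against 0 h, 20 to 26 at 2 d against 4 h, and 10 to 21 at 4 d against 2 d. Same-numbered libraries deviated together in some comparisons and apart in others (correlations of -0.813 to 0.677), so the numbers were not taken to pair the libraries; with the replicate block, 22, 30, 24 and 10 members were called in the last 4 comparisons. Leaving out 0 h replicate 2, 4 h replicate 1 and 4 d replicate 1 together, a setting chosen after seeing the data, gave 4, 26, 30, 24 and 17 called members in the 5 comparisons. No scaling moved the median of all genes by more than 0.069 on the log2 scale. Members with few reads are limited by depth, and their changes at levels below 0.218 to 0.369 CPM, or 3 reads in a library, can be missed.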
